A study of Macaca fascicularis with 4 samples.

Results

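Lipoxygenases and prostaglandin enzymes turn arachidonic acid and related fatty acids into eicosanoids, the short-lived lipid signals that include leukotrienes and prostaglandins. The 8 genes described here are ALOX15, ALOX5, LTA4H, PTGS1, PTGS2, PTGIS, PTGDS and PTGES, and they were taken by name out of the 13982 genes that the count tables hold. The set was chosen on measured values: ALOX15 had been seen to be far higher in the oWAT library, and the other 7 belong to the same chemistry. The ALOX15 levels and every comparison of oWAT with sWAT are therefore given as descriptions. A count was present for 7 of the 8 genes, and all 8 matched a symbol in the RefSeq gene table of the assembly T2T-MFA8v1.1.

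The study read full-length transcripts of Macaca fascicularis, the crab-eating macaque, by PacBio sequencing of cDNA. There were 4 libraries, 1 each of oWAT, sWAT, muscle and liver. The labels name the tissues only by these words and do not spell out oWAT or sWAT. They give no treatment, diet, age or sex for any tissue, so the groups differ by tissue alone as far as the labels say. Each library was made of RNA pooled from 5 monkeys, so the spread between animals cannot be seen, and every interval below covers counting error only.

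The libraries held 396797 gene counts in oWAT, 383896 in sWAT, 439872 in muscle and 437587 in liver. Levels are given as raw counts and as CPM, the count scaled to a library total of 1000000. A gene with no count in a library is limited by a count of 3, which corresponds to 7.56 CPM in oWAT, 7.81 CPM in sWAT, 6.82 CPM in muscle and 6.86 CPM in liver. Ratios given as "at least" are taken over this limit. They leave out counting error in the higher library, so the interval bound can be lower. The tissue labels matched their defining markers: 8 hepatocyte genes summed to 167909 CPM in liver and at most 15.1 CPM in the other libraries, and 8 myofibre genes summed to 99513 CPM in muscle and at most 130 CPM elsewhere. The 8 adipocyte genes summed to 9793 CPM in oWAT, 8398 CPM in sWAT, 1948 CPM in muscle and 784 CPM in liver. GPD1 gave 667 of the 857 counts in muscle and 338 of the 343 in liver, so the sums there rest mostly on GPD1. LIPE had 1313 counts in oWAT and 783 in sWAT, GPD1 1074 and 720, and PLIN1 216 and 165. The rest of the list were lower in oWAT, with ADIPOQ at 915 and 1117 and FABP4 at 292 and 347. LEP had 11 and 21 counts, CIDEC 33 and 38, and PPARG 32 and 33. Counts are not divided by transcript length, so a level of 1 gene is compared between tissues and not with the level of another gene.

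Arachidonic acid is released from membrane phospholipids and enters one of several routes. Lipoxygenases add oxygen at a set carbon of the chain: the ALOX5 product leads to leukotrienes, and the ALOX15 products lead to hydroxy fatty acids and take part in making lipoxins and related mediators. Cyclooxygenases (PTGS1 and PTGS2) make the common precursor prostaglandin H2, and terminal synthases convert it to prostacyclin (PTGIS), prostaglandin D2 (PTGDS) or prostaglandin E2 (PTGES). In fat, prostaglandin E2 acting on the EP3 receptor is known to restrain lipolysis, and prostacyclin is known as a vessel-relaxing product of endothelium and smooth muscle.

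**Figure D1:**
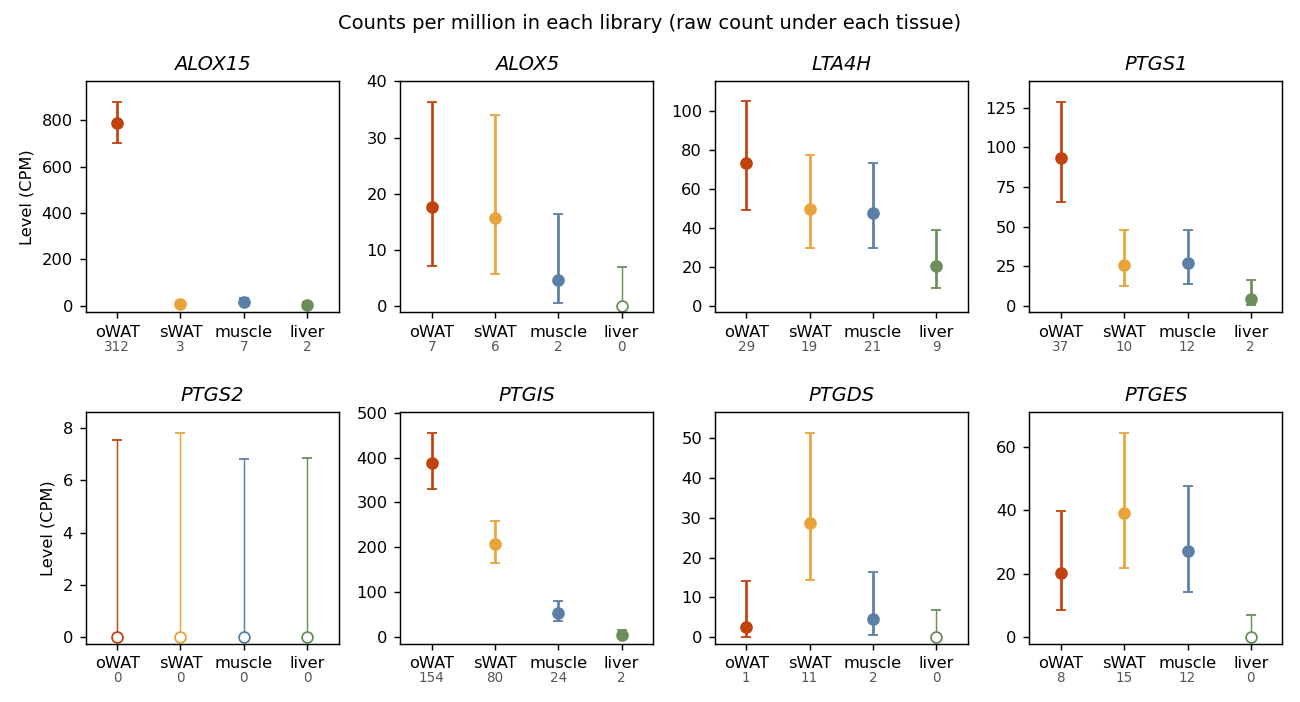
Level of each of the 8 genes in CPM (linear axis, 1 scale per gene) in oWAT, sWAT, muscle and liver, 1 library each; bars are exact 95% Poisson intervals, open circles mark 0 counts with a bar to the 3-count limit, and the raw count stands under each tissue. ALOX15 stands at 786 CPM in oWAT and at 15.9 CPM or lower in the other 3 libraries, and the PTGIS levels are ordered oWAT, sWAT, muscle, liver with no overlap of intervals.

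ALOX15, the 15-lipoxygenase, had 312 counts in oWAT, 3 in sWAT, 7 in muscle and 2 in liver. These correspond to 786 CPM in oWAT (95% interval 701 to 879), 7.81 CPM in sWAT (1.61 to 22.8), 15.9 CPM in muscle (6.40 to 32.8) and 4.57 CPM in liver (0.554 to 16.5). The oWAT interval lay above all 3 others, and the intervals of sWAT, muscle and liver overlapped one another. Of the summed CPM of the 4 libraries, oWAT held 96.5%. The ratio was 101 in oWAT over sWAT (95% interval 34.1 to 491), 49.4 in oWAT over muscle (23.7 to 124) and 172 in oWAT over liver (47.2 to 1427). The lower bound of the interval was further above 1 than that of ALOX15 for 2 of the 7040 genes compared between oWAT and sWAT. It was so for 8 of 7345 between oWAT and muscle and 28 of 7401 between oWAT and liver. Genes lower in oWAT were not counted in this placing. Between muscle and liver the ratio was 3.48 (0.663 to 34.4), and between sWAT and muscle it was 0.491 (0.0819 to 2.15), so the order of the 3 low libraries was not resolved.

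In the RefSeq order of genes, ALOX15 lies between SMTNL2 and PELP1. SMTNL2 had 24 counts in oWAT, 2 in sWAT, 262 in muscle and 0 in liver, and PELP1 had 38, 22, 31 and 19 counts in the same libraries. SMTNL2 was highest in muscle, and PELP1 was spread over the 4 libraries.

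ALOX5, the 5-lipoxygenase that starts leukotriene synthesis, had 7 counts in oWAT, 6 in sWAT, 2 in muscle and 0 in liver. In CPM this was 17.6 in oWAT, 15.6 in sWAT, 4.55 in muscle and 0 in liver, where a count of 0 allows up to 6.86 CPM. The gene never reached 10 counts, and the ratio was 1.13 in oWAT over sWAT (0.325 to 4.07) and 3.88 in oWAT over muscle (0.739 to 38.3). In the RefSeq table ALOX5 overlaps MARCHF8, which had 23 counts in oWAT, 9 in sWAT, 15 in muscle and 7 in liver. The sources used here do not give strand use in counting, so reads of the 2 genes where they overlap cannot be told apart.

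LTA4H, the hydrolase that makes leukotriene B4 out of leukotriene A4, was the most even of the genes with a count in every library. It had 29 counts in oWAT, 19 in sWAT, 21 in muscle and 9 in liver, or 73.1 CPM (48.9 to 105), 49.5 CPM (29.8 to 77.3), 47.7 CPM (29.6 to 73.0) and 20.6 CPM (9.40 to 39.0). Only the oWAT and liver intervals did not overlap. The ratio was 1.48 in oWAT over sWAT (0.800 to 2.79), 1.53 in oWAT over muscle (0.843 to 2.82) and 3.55 in oWAT over liver (1.64 to 8.53). The order of oWAT, sWAT and muscle was within counting error. With TMM factors, which scale to the bulk of genes rather than to the total, the ratio of oWAT over liver was 1.77 (0.816 to 4.25) and its interval included 1.

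The partners of ALOX5 and LTA4H were sparse. ALOX5AP, the membrane protein that presents arachidonic acid to 5-lipoxygenase, had 3 counts in sWAT and 0 in oWAT, muscle and liver. LTC4S, which makes leukotriene C4, had 1 count in oWAT and 0 in the other 3 libraries. The leukotriene receptors LTB4R and CYSLTR1 had no count, and CYSLTR2 had 4 counts in oWAT, 6 in sWAT, 5 in muscle and 2 in liver. Among the other lipoxygenases, ALOX12 had 0, 1, 1 and 0 counts in oWAT, sWAT, muscle and liver, and ALOX12B, ALOX15B and ALOXE3 had none under these names.

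PTGS1, the cyclooxygenase that many cells make at rest, had 37 counts in oWAT, 10 in sWAT, 12 in muscle and 2 in liver. In CPM it stood at 93.2 in oWAT (65.7 to 129), 26.0 in sWAT (12.5 to 47.9), 27.3 in muscle (14.1 to 47.7) and 4.57 in liver (0.554 to 16.5). The oWAT interval lay above the others, sWAT and muscle overlapped almost wholly, and sWAT and liver also overlapped. The ratio was 3.58 in oWAT over sWAT (1.75 to 8.07), 3.42 in oWAT over muscle (1.74 to 7.20) and 20.4 in oWAT over liver (5.26 to 175). In sWAT over muscle it was 0.955 (0.370 to 2.41), in sWAT over liver 5.70 (1.21 to 53.5), and in muscle over liver 5.97 (1.33 to 54.9). With TMM factors the ratio over liver was 10.2 for oWAT (2.62 to 87.0), 3.15 for sWAT (0.671 to 29.6) and 4.39 for muscle (0.978 to 40.4), so the intervals of sWAT and muscle included 1.

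PTGS2, the inducible cyclooxygenase, was listed in none of the 4 libraries and was taken as 0. A count of 0 allows up to 7.56 CPM in oWAT, 7.81 CPM in sWAT, 6.82 CPM in muscle and 6.86 CPM in liver. The tables list only genes with a count, so whether the annotation behind them held this name is not known. Its RefSeq neighbour PLA2G4A, the cytosolic phospholipase that releases arachidonic acid, had 5 counts in oWAT, 5 in sWAT, 1 in muscle and 0 in liver.

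PTGIS, prostacyclin synthase, was the member whose levels in the 4 libraries were ordered beyond counting error. It had 154 counts in oWAT, 80 in sWAT, 24 in muscle and 2 in liver. The levels were 388 CPM in oWAT (329 to 454), 208 CPM in sWAT (165 to 259), 54.6 CPM in muscle (35.0 to 81.2) and 4.57 CPM in liver (0.554 to 16.5), and no 2 of these intervals overlapped. The ratio was 1.86 in oWAT over sWAT (1.41 to 2.47), 7.11 in oWAT over muscle (4.61 to 11.4) and 84.9 in oWAT over liver (23.1 to 707). It was 3.82 in sWAT over muscle (2.39 to 6.30), 45.6 in sWAT over liver (12.2 to 383) and 11.9 in muscle over liver (2.96 to 104). With TMM factors the sWAT over muscle ratio was 2.87 (1.80 to 4.73) and no longer had its bound past 2, and the ratios over liver were 42.3 for oWAT and 25.2 for sWAT. The oWAT over sWAT ratio was then 1.68 (1.27 to 2.23), and its bound was past 2 under neither scaling.

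The prostacyclin receptor PTGIR had 9 counts in oWAT and 1 count in each of sWAT, muscle and liver. It stayed below 10 counts in every library, so its ratios were not called.

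PTGDS, the lipocalin-type prostaglandin D synthase, had its highest level in sWAT. It had 1 count in oWAT, 11 in sWAT, 2 in muscle and 0 in liver. The sWAT level was 28.7 CPM (14.3 to 51.3), beside 2.52 CPM in oWAT, 4.55 CPM in muscle and a limit of 6.86 CPM in liver. The ratio of oWAT over sWAT was 0.0880 (0.00204 to 0.605), which is 11.4-fold lower in oWAT with an interval of 1.65 to 489. In sWAT over muscle it was 6.30 (1.38 to 58.5), and against the liver count of 0 the level in sWAT was higher by at least 4.18-fold. HPGDS, the haematopoietic enzyme that makes the same product, had 8 counts in oWAT, 9 in sWAT, 9 in muscle and 2 in liver, and the receptors PTGDR and PTGDR2 had none.

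PTGES, the inducible microsomal prostaglandin E synthase, had 8 counts in oWAT, 15 in sWAT, 12 in muscle and 0 in liver. Its levels were 20.2 CPM in oWAT (8.70 to 39.7), 39.1 CPM in sWAT (21.9 to 64.4) and 27.3 CPM in muscle (14.1 to 47.7), and the 3 intervals overlapped. The ratio was 0.516 in oWAT over sWAT (0.189 to 1.30), 0.739 in oWAT over muscle (0.262 to 1.97) and 1.43 in sWAT over muscle (0.626 to 3.35). Against the liver count of 0, the level was higher by at least 2.94-fold in oWAT (interval bound 1.88), 5.70-fold in sWAT and 3.98-fold in muscle. With TMM factors these limits were 1.46-fold in oWAT, with an interval bound of 0.938, 3.15-fold in sWAT and 2.93-fold in muscle. The oWAT value rests on 8 counts and was called under neither scaling. The cytosolic synthase PTGES3, also known as a heat shock protein partner, had 51 counts in oWAT and 52 counts in each of sWAT, muscle and liver.

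The tables hold few counts of some short transcripts. The 46 genes named as ribosomal proteins summed to 769 CPM in oWAT, 742 CPM in sWAT, 509 CPM in muscle and 436 CPM in liver, and the neutrophil genes S100A8 and S100A9 had none. Transcript length is not in the tables, and its part in the low counts of PTGDS, PTGES, ALOX5AP and LTC4S was not tested.

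**Figure D2:**
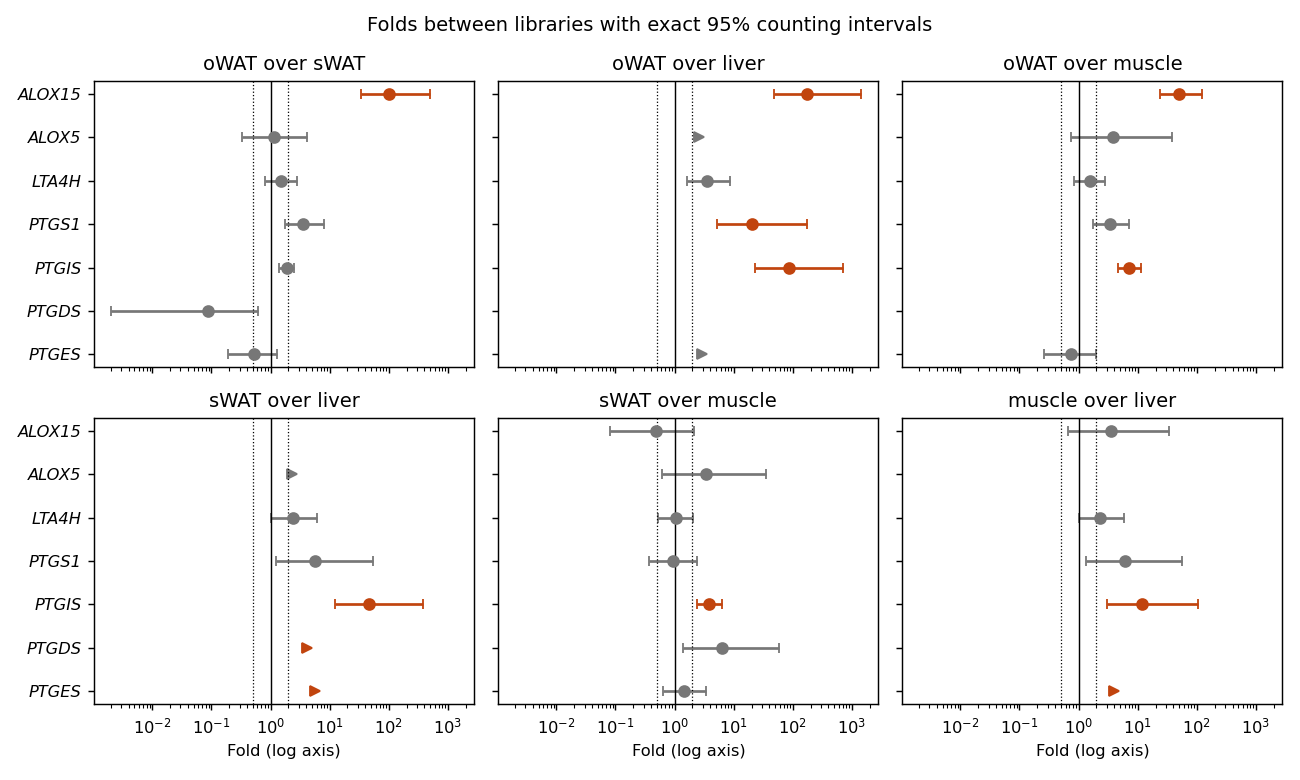
Ratio of each member in the 6 pairs of libraries (log axis), with its exact 95% interval. Red marks members whose bound nearest to 1 passed 2-fold and whose higher library held 10 counts or more, and grey the rest. Triangles are ratios over the 3-count limit where the lower count was 0, without counting error. Dotted lines stand at 0.5 and 2, and a member with 3 counts or fewer in both libraries of a pair is not drawn. ALOX15 is red in the 3 pairs with oWAT on top, at ratios of 101, 172 and 49.4.

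A gene was called where its higher library held 10 counts or more and the interval bound nearest to 1 was past 2-fold. Between oWAT and sWAT, 6 of the 8 members reached 10 counts in 1 library; 1 was called higher in oWAT, ALOX15, and 0 were called lower. Of all 7040 genes compared, 1.34% were called higher in oWAT and 0.653% lower; ALOX15 was chosen on this contrast, so nothing is read from the count. PTGS1, PTGIS and PTGDS had intervals that excluded 1 but did not pass 2, and with a bound of 1 in place of 2 the members called were 4. The share of all genes was not taken at that bound.

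Against liver, 3 of the 4 members at the minimum were called higher in oWAT, namely ALOX15, PTGS1 and PTGIS, beside 22.9% of the 7401 genes compared. Called lower were 0, beside 8.63%. ALOX15 was chosen as far higher in oWAT, so nothing is read from this count. In sWAT over liver, 3 of 5 members were called higher, PTGIS, PTGDS and PTGES, beside 20.7% of genes, and 0 lower, beside 9.58%. In muscle over liver, 2 of 4 were called higher, PTGIS and PTGES, beside 19.1% of genes, and 0 lower, beside 12.5%. No member was highest in liver, and the share of all genes highest in liver was not taken. With library totals, most genes compared lay above liver: 76.0% in oWAT, 70.6% in sWAT and 63.3% in muscle. Nothing is therefore read from this about the members. PTGDS lost its call over liver with TMM factors, where its level in sWAT was higher by at least 2.31-fold, with an interval bound of 1.58.

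Against muscle, 2 of 5 members were called higher in oWAT, ALOX15 and PTGIS, beside 10.2% of the 7345 genes compared, and 0 lower, beside 6.56%. In sWAT over muscle, 1 of 5 was called higher, PTGIS, beside 9.52% of genes, and 0 lower, beside 7.63%. ALOX15 was chosen as far higher in oWAT, and a member reached the minimum through the tissue where it was high. The pairs also share libraries, so the counts against liver and muscle are descriptions.

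The background depends on the scaling. Under TMM factors, the share of called genes that were higher in the library on top changed to 39.1% in oWAT over liver, against 72.6% with library totals. It was 31.7% against 60.9% in oWAT over muscle, 41.1% against 68.3% in sWAT over liver, 32.7% against 55.5% in sWAT over muscle, 46.5% against 60.5% in muscle over liver, and 53.3% against 67.1% in oWAT over sWAT. TMM factors moved the median log2 ratio of all genes by -1.01 in oWAT over liver, -0.86 in sWAT over liver, -0.56 in oWAT over muscle, -0.44 in muscle over liver, -0.41 in sWAT over muscle and -0.15 in oWAT over sWAT. ALOX15 kept its 3 calls under these factors, at ratios of 90.7 over sWAT, 33.4 over muscle and 85.7 over liver.

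The genes whose tissue pattern was most like that of ALOX15 were MSLN, ITLN1, WT1, WIF1 and ALDH1A2. Likeness was measured as the distance between the shares of summed CPM that each gene had in the 4 libraries, where 0 is identical and 1 is no overlap, among 3249 genes with at least 100 counts. MSLN, mesothelin, was nearest at 0.0291 with 130 counts in oWAT, 0 in sWAT, 0 in muscle and 2 in liver. ITLN1, omentin, lay at 0.0301 with 964, 0, 0 and 5 counts in those libraries. WT1, a transcription factor of mesothelium and kidney, lay at 0.0315 with 277, 0, 0 and 1 counts. WIF1, a secreted Wnt inhibitor, lay at 0.0338 with 127, 1, 8 and 0 counts, and ALDH1A2, a retinoic acid synthesis enzyme, at 0.0620 with 194, 7, 13 and 2 counts. These distances rest on 4 libraries, and ALOX15 was chosen for this pattern.

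The nearest genes of the other members were of other kinds. LTA4H was nearest to HPS4 (0.00768), TOMM20, TAP1, ABHD4 and CSNK1D (0.0199), all spread over the 4 libraries. PTGS1 was nearest to SPON1, a secreted matrix protein, at 0.0106, with 80 counts in oWAT, 23 in sWAT, 26 in muscle and 3 in liver, then to PLAT, tissue plasminogen activator, at 0.0453, and to GAS6, DKK3 and SLC22A17 (0.0727). PTGIS was nearest to the gene CPM, carboxypeptidase M, at 0.0182, with 338 counts in oWAT, 172 in sWAT, 65 in muscle and 4 in liver. ADA2, FGR, FBLN5 and LIPE followed, and LIPE, hormone-sensitive lipase, lay at 0.0482 with 1313 counts in oWAT, 783 in sWAT, 100 in muscle and 3 in liver.

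**Figure D3:**
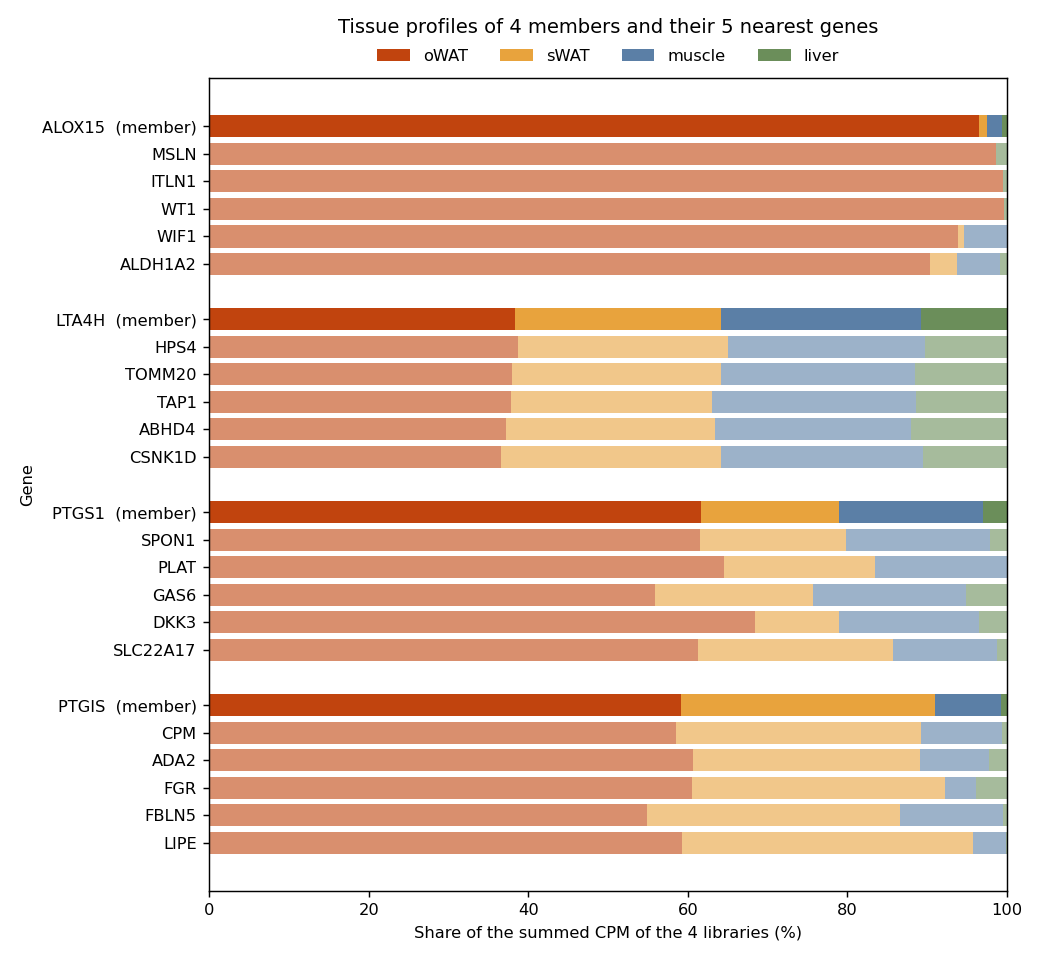
Share of the summed CPM of the 4 libraries (percent, stacked bars) for ALOX15, LTA4H, PTGS1 and PTGIS, each beside its 5 nearest genes. ALOX15 has 96.5% of its summed CPM in oWAT, PTGS1 61.7%, PTGIS 59.2% and LTA4H 38.3%.

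Markers of other cell types differed between the libraries along with the members. In bulk tissue, fewer cells of a type and less RNA per cell cannot be told apart. The 12 mesothelial markers summed to 4078 CPM in oWAT, where 9 had a count, and to 5.21 CPM in sWAT, where CALB2 alone had 2 counts. They summed to 0 in muscle and to 25.1 CPM in liver, where 5 had a count, and KRT8 and KRT18 were at 0 in all 4 libraries. The part of mesothelium in the ALOX15 level was not tested.

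Markers of white blood cells, several of which are known to hold lipoxygenases, ranged widely. Of 6 eosinophil markers, IL5RA had 1 count in oWAT, and CLC, EPX, PRG2, CCR3 and SIGLEC8 were at 0 in all 4 libraries. TYROBP of the macrophage list was also at 0 in oWAT, sWAT and liver. A marker at 0 therefore does not show that its cell type was absent. The 6 neutrophil markers summed to 22.7 CPM in oWAT, 13.0 CPM in sWAT, 13.6 CPM in muscle and 9.14 CPM in liver, and the 7 mast cell markers to 25.2, 52.1, 13.6 and 4.57 CPM. The 12 macrophage markers summed to 1953 CPM in oWAT, 1401 CPM in sWAT, 489 CPM in muscle and 766 CPM in liver, with 11 detected in each. CSF1R led them with 252 counts in oWAT, 153 in sWAT, 109 in muscle and 78 in liver, and CD68 had 151, 90, 13 and 10. C1QB, C1QC, VSIG4 and LYZ also had most counts in oWAT. Other genes of the list were lower in oWAT than in sWAT, with CD163 at 33 and 62, MRC1 at 99 and 100, and C1QA at 6 and 8. MARCO had 12 counts in oWAT and 19 in liver, and CD14 had 54 and 69. Their part in the levels of ALOX15, ALOX5 and LTA4H was not tested.

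The 7 B and plasma cell markers summed to 192 CPM in oWAT, 57.3 CPM in sWAT, 15.9 CPM in muscle and 18.3 CPM in liver. The 7 T and NK cell markers came to 22.7, 10.4, 0 and 4.57 CPM, and the 5 platelet markers, of a cell type rich in PTGS1 protein, to 2.52, 10.4, 4.55 and 6.86 CPM in the same order of libraries. Platelet PF4, GP1BA and GP9 were at 0 in all 4.

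PTGIS is known in vessel and stromal cells. The 8 endothelial markers summed to 2324 CPM in oWAT, 4142 CPM in sWAT, 1144 CPM in muscle and 290 CPM in liver. The 8 smooth muscle and pericyte markers summed to 1293, 2024, 1125 and 103 CPM, and the 8 fibroblast markers to 18886, 54523, 12915 and 231 CPM. All 3 sums were lower in oWAT than in sWAT. No endothelial gene had more counts in oWAT than in sWAT, with PECAM1 at 352 and 535 and VWF at 250 and 591. Within the other lists the genes differed. COL1A1 had 3004 counts in oWAT and 12053 in sWAT, and COL1A2 had 2035 and 6765, so these carry most of the fibroblast sum. FBLN1 had 533 counts in oWAT and 167 in sWAT, DPT 289 and 210, and DCN 927 and 841. The rest of that list were lower in oWAT, with PI16 at 170 and 278, PDGFRA at 30 and 73, and LUM at 506 and 544. In the smooth muscle and pericyte list, RGS5 had 138 counts in oWAT and 100 in sWAT, CNN1 11 and 6, and ACTA2 66 and 65. PDGFRB had 181 and 372, MYH11 75 and 172, TAGLN 38 and 50, NOTCH3 3 and 5, and CSPG4 1 and 7. Their part in the PTGIS level was not tested.

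**Figure D4:**
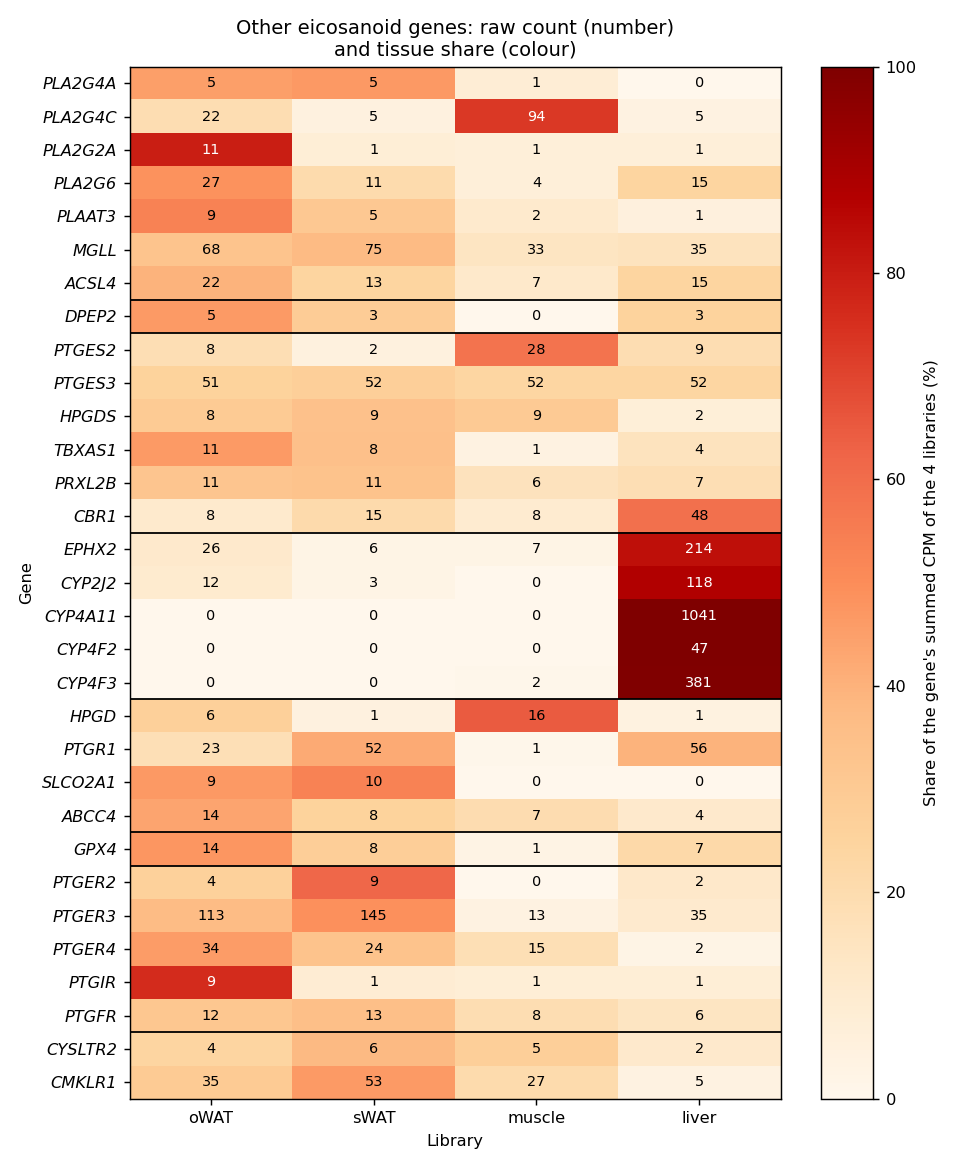
Raw counts (numbers) and share of each gene's summed CPM of the 4 libraries (colour, percent; lines part the roles) for the 31 other eicosanoid genes with a sum of 10 counts or more, in oWAT, sWAT, muscle and liver. All 1041 counts of CYP4A11 are in liver, and PTGER3 has 113 counts in oWAT and 145 in sWAT.

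The wider pathway was read from a list of 54 other eicosanoid genes, of which 38 had a count and 16 had none under the listed names. The genes called in at least 1 pair numbered 16. The share of all genes called in at least 1 pair was not taken, so this count only sets which pathway genes are named. Between oWAT and sWAT, 0 of the 19 genes at the minimum were called in either direction. Of all genes, 1.34% were called higher in oWAT and 0.653% lower. With a bound of 1 in place of 2 there were 8 pathway genes, and the share of all genes was not taken at that bound. The median log2 ratio of the 19 was 0.39, beside 0.18 over all genes compared.

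Against liver, 3 of 21 pathway genes were called higher in oWAT and 6 lower, beside 22.9% of all genes higher and 8.63% lower, with a median log2 ratio of 0.97 beside 1.0 over all genes. In sWAT over liver, 4 of 17 were higher and 5 lower, beside 20.7% and 9.58% of all genes, with a median of 0.083 beside 0.79. In muscle over liver, 3 of 17 were higher and 7 lower, beside 19.1% and 12.5%, with a median of -1.40 beside 0.56. Under TMM factors the split was 1 higher and 7 lower for oWAT, 1 and 6 for sWAT, and 1 and 7 for muscle. The shares of all genes called higher and lower were then 8.82% and 13.7% for oWAT, 10.1% and 14.5% for sWAT, and 13.4% and 15.4% for muscle.

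The genes called lower than in liver were enzymes of the P450 branch and reductases. CYP4A11, CYP4F2, CYP4F3, CYP2J2 and EPHX2 were called lower in oWAT, sWAT and muscle, CBR1 in oWAT and muscle, and PTGR1 in muscle. CYP4A11, an omega-hydroxylase, had 0 counts in oWAT, sWAT and muscle and 1041 in liver. It was at least 315-fold lower in oWAT, with an interval bound of 255. CYP4F3, which inactivates leukotriene B4, had 0, 0, 2 and 381 counts, and CYP4F2 had 0, 0, 0 and 47. These belong to families of near-identical genes, and the sources used here do not say how shared reads were assigned. CYP2J2, an epoxygenase, had 12 counts in oWAT, 3 in sWAT, 0 in muscle and 118 in liver. EPHX2, the soluble epoxide hydrolase that breaks its products down, had 26, 6, 7 and 214 counts, and its ratio of oWAT over liver was 0.134 (0.0856 to 0.202). CBR1, a carbonyl reductase that can act on prostaglandin E2, had 8, 15, 8 and 48 counts.

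The genes called higher in oWAT or sWAT than in liver were 3 receptors and a transporter. PTGER3, the EP3 receptor, had 113 counts in oWAT, 145 in sWAT, 13 in muscle and 35 in liver. Its ratio was 3.56 in oWAT over liver (2.42 to 5.36), 4.72 in sWAT over liver (3.25 to 7.04), 9.64 in oWAT over muscle (5.41 to 18.7) and 12.8 in sWAT over muscle (7.24 to 24.6). The oWAT and sWAT levels stood above muscle and liver, and under TMM factors the 2 calls over liver were lost while those over muscle held. PTGER4, the EP4 receptor, had 34, 24, 15 and 2 counts in oWAT, sWAT, muscle and liver, a ratio of 18.7 in oWAT over liver (4.81 to 161). CMKLR1, a receptor for chemerin and for resolvin E1, had 35, 53, 27 and 5 counts, a ratio of 12.1 in sWAT over liver (4.86 to 38.7). SLCO2A1, the prostaglandin transporter, had 9, 10, 0 and 0 counts, and the sWAT level was higher than that of liver by at least 3.80-fold. Under TMM factors PTGER4 kept its call in oWAT over liver and CMKLR1 in sWAT over liver, while PTGER4 lost its call in sWAT over liver, CMKLR1 its calls in oWAT over liver and muscle over liver, and SLCO2A1 its calls over liver and muscle.

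Against muscle, 5 of 19 pathway genes were called higher in oWAT and 1 lower, beside 10.2% of all genes higher and 6.56% lower, with a median log2 ratio of 1.30 beside 0.57 over all genes. In sWAT over muscle, 3 of 15 were higher and 3 lower, beside 9.52% and 7.63%, with a median of 1.04 beside 0.38. Under TMM factors the split was 3 higher and 2 lower for oWAT, beside 4.51% and 9.72% of all genes, and 2 and 3 for sWAT, beside 5.01% and 10.3%. PTGR1, which reduces prostaglandins and can oxidise leukotriene B4, had 23 counts in oWAT, 52 in sWAT, 1 in muscle and 56 in liver. PLA2G6, a calcium-independent phospholipase, had 27, 11, 4 and 15 counts, and GPX4, which reduces lipid hydroperoxides, had 14, 8, 1 and 7. Both were called higher in oWAT than in muscle with library totals and not with TMM factors.

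Among the called pathway genes, 3 had their highest level in muscle. PLA2G4C, a cytosolic phospholipase, had 22 counts in oWAT, 5 in sWAT, 94 in muscle and 5 in liver, with a ratio of 18.7 in muscle over liver (7.74 to 58.9) and 0.259 in oWAT over muscle (0.155 to 0.416). PTGES2, a further prostaglandin E synthase, had 8, 2, 28 and 9 counts. HPGD, the dehydrogenase that inactivates prostaglandins, had 6, 1, 16 and 1 counts. In sWAT over muscle, PTGES2 had a ratio of 0.0818 (0.00945 to 0.325) and HPGD a ratio of 0.0716 (0.00171 to 0.461).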

How the data were processed

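Full-length RNA of 4 tissues was analysed, with 1 library per tissue made of RNA pooled from 5 monkeys per the labels' protocols. The deposited tables hold raw counts per gene, in whole numbers and without normalization. Reads were aligned with minimap2 2.24, per the submitters' processing notes; for the genome build, annotation, strand use and assignment of reads to genes, nothing is given in the sources used here. The oWAT and sWAT tables carry other abbreviations in their names, and the labels were followed. The entry that names no gene (19.5% of the oWAT table, 16.6% of sWAT, 14.3% of muscle, 19.2% of liver) was left out of totals. The tables list only genes with a count, so an unlisted gene was taken as 0.

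Counts were scaled to library totals (CPM). Each ratio has an exact 95% interval (Clopper-Pearson, on the share of the 2 counts that came from 1 library), and each level an exact Poisson interval. The reads carry no molecular identifiers, so intervals and limits cover counting error only. No p-values were computed. A gene was compared in a pair where 1 library had at least 10 counts, and called where the interval bound nearest to 1 was past 2-fold. Against 0, a floor of 3 counts was used and the ratio of the observed higher count to it is given as "at least". This value does not cover counting error in the higher count. Medians used 0.5 added counts.

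The members, the pathway list and the marker lists were chosen with earlier results of these data known. The text names all members, every pathway gene called in at least 1 pair, the 5 genes nearest in tissue share to each member with at least 50 counts, and the marker lists. Other genes named after their values were seen are PTGES3, HPGDS, PTGIR, ALOX5AP, LTC4S, ALOX12, PLA2G4A, the genes with no count, the neighbours in the RefSeq table, the ribosomal protein genes and single genes of the marker lists.

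The 9 alternatives were TMM factors (edgeR 4.0.16) and DESeq2 1.42.0 size factors, both in R 4.3.3 and used for scaling alone, totals that leave out the 10 most abundant genes of each library, totals with the entry that names no gene, minimum counts of 3 and 20, 99% intervals, and bounds of 1 and 4; medians were also taken with 0.1 and 1 added counts, and nearest genes with a minimum of 50. Python 3.11.15 with NumPy 2.4.6, pandas 2.3.3, SciPy 1.17.1 and matplotlib 3.10.9 did the rest.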

Additional observations from a re-analysis of the deposited data

How the results depend on the processing

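The ratios of ALOX15 in oWAT over sWAT, muscle and liver were called under all 4 other scalings. Of 37 member ratios, 32 stayed within their interval under TMM factors and 32 under DESeq2 size factors, and 5 moved in each. Among called ratios, 0 reversed. Some uncalled ratios near 1 changed direction. The LTA4H log2 ratio in sWAT over muscle was 0.052 with library totals and -0.36 with TMM factors. That of ALOX5 in oWAT over sWAT was 0.17 with library totals and -0.010 with DESeq2 factors. With TMM or DESeq2 factors, members called in sWAT over muscle were 0 in place of 1. Of all genes compared there, 5.01% were called higher and 10.3% lower with TMM factors. With DESeq2 factors the shares were 5.51% and 9.76%. A minimum of 20 counts left 1 member called in sWAT over liver and 1 in muscle over liver, and 99% intervals left 1 in muscle over liver. With a bound of 1, members called were 4 in oWAT over sWAT, 5 in sWAT over liver, 2 in sWAT over muscle and 4 in muscle over liver; with a bound of 4 they were 0 in sWAT over muscle and 0 in muscle over liver. Pathway genes called with a bound of 1 were 8 in oWAT over sWAT, 15 in oWAT over liver and 13 in oWAT over muscle, and with a bound of 4 they were 2 in oWAT over muscle and 3 in sWAT over muscle. The shares of all genes called were not taken at these other minimums, intervals and bounds. The pathway median log2 ratio changed sign in oWAT over liver, to -0.037 with TMM and -0.021 with DESeq2 factors. In sWAT over liver it became -0.77 with TMM factors, -0.72 with DESeq2 factors and -0.087 without the 10 most abundant genes. These scalings shift all genes of a pair by the same amount. With a minimum of 50 counts, 3 of the 5 nearest genes were shared for ALOX15, LTA4H and PTGS1, and 2 for PTGIS.

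Depth limits ALOX5, PTGS2, PTGDS and PTGES most: each had at most 15 counts in a library, so a difference between such low levels was often not detectable. With 1 pooled library per tissue, animal-to-animal spread and any difference in handling between libraries cannot be told apart from tissue.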
